A study of Homo sapiens with 3 samples.

Results

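BPP-only H3K27ac peaks at gene ends are CUT&Tag peaks that were called after treatment with the BPP peptide, had no peak of the control list within 1 kb, and overlapped a window of 1 kb on either side of the start or end coordinate of a protein-coding gene. They were selected on the presence of a peak in 1 deposited list and its absence from another, so that absence from the control is a description and not a finding. Of 17841 BPP peaks on chromosomes 1 to 22 and X, 8235 had no control peak within 1 kb (46.2%), and 1380 of these lay at gene ends. These 1380 peaks made up 25.4% of the 5427 gene-end BPP peaks. The mirror set, control peaks at gene ends without a BPP peak within 1 kb, held 1373 of 5397 peaks (25.4%). The 4047 gene-end BPP peaks with a control peak within 1 kb are called shared.

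The study profiled A2780, a human ovary carcinoma cell line, in 3 libraries with 1 library per group. The BPP library was made with an antibody to H3K27ac after exposure to BPP. The design text describes BPP as a competing peptide for a site at which BIN2, a membrane-binding BAR-domain protein, is phosphorylated. The CTR library was made with the same antibody from control cells. Whether they received a peptide is not given in the sources used here. For RNA sequencing of the same study the comparator was a TAT peptide, per the design text. The IgG library gave the background of an antibody without a target. Cells of all 3 groups had been frozen and thawed before a commercial CUT&Tag kit was applied. With 1 library per group, differences between groups could not be checked against replicates and no p-values are given, and the peaks of a library are not replicates of a condition. Depth was unknown, so a missing peak does not show a missing signal. Intervals in parentheses are 95% Wilson intervals, or Newcombe intervals for differences of shares, and cover counting error only.

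Acetylation of lysine 27 on histone H3 is placed by the acetyltransferases EP300 and CREBBP and removed by histone deacetylases. It marks active promoters, where it flanks the nucleosome-depleted start of transcription, and active enhancers, which may lie inside genes or far from them. In CUT&Tag an antibody brings a transposase to the modified nucleosome, and the transposase inserts sequencing adapters into the DNA nearby. The transposase can also insert into accessible DNA without the antibody, which is why an IgG library is made. Many promoters of broadly expressed genes lie in CpG islands and carry short motifs for general factors such as SP1, NF-Y, the ETS family, NRF1 and YY1.

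Promoter sequences below are from RefSeq (GRCh38.p14), 300 bases each, from 250 bases before the start of transcription, and are written 5′ to 3′ on the strand of the gene. The 6 promoters were picked to show what BPP-only peaks overlapped, from promoters with few CpG dinucleotides to promoters with many motif matches. Of the 300 bases the peak covered 278 at SLC35B1, 225 at GNB2, 231 at POC5, 191 at RAD51C and all at ARID4A and DDIT3. Capitals mark exact matches on either strand to 9 motifs. The letters GGGCGG were searched for the GC box of SP1, the letters CCAAT for the box of NF-Y, and the letters CCGGAAG for ETS factors. The letters GCATGCGC were searched for NRF1, the letters TGACGTCA for the cyclic AMP response element (CRE), and the letters TGANTCA for AP-1. The letters CACGTG were searched for the E-box, the letters TATAAA for the TATA box, and the letters AAGATGGC for YY1. SLC35B1 (chr17:49707915-49708214, minus strand), an ATP carrier of the endoplasmic reticulum, had the second highest −log10 q of the set and a ratio of observed to expected CpG of 0.450. GNB2 (chr7:100673490-100673789, plus strand), a G protein beta subunit, had a ratio of 0.735, and its GC box lay past the end of the peak. POC5 (chr5:75717388-75717687, minus strand), a centriole protein, held 4 GC boxes and 2 CCAAT boxes. ARID4A (chr14:58298305-58298604, plus strand), a subunit of the SIN3 deacetylase complex, held 6 CCAAT boxes and no other motif. RAD51C (chr17:58692352-58692651, plus strand), a recombination protein, held 1 CRE. DDIT3 (chr12:57520468-57520767, minus strand), a transcription factor of the unfolded protein response, held 7 matches to 4 motifs.
SLC35B1: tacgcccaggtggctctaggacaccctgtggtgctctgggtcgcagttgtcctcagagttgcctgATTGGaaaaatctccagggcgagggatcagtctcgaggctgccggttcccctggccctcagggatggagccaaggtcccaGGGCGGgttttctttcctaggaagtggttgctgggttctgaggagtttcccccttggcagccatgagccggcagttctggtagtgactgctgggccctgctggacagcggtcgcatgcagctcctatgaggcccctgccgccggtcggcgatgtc
GNB2: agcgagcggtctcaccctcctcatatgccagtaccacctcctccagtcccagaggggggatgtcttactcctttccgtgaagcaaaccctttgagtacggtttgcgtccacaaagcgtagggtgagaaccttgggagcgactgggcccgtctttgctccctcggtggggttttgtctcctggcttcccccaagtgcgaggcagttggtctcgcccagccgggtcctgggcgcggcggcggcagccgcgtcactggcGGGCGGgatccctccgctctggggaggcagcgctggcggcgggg
POC5: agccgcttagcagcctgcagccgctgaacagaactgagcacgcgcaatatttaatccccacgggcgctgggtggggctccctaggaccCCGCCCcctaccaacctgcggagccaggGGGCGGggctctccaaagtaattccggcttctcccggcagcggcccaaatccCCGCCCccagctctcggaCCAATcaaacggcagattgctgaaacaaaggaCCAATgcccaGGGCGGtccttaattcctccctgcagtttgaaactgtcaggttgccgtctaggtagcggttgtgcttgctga
ARID4A: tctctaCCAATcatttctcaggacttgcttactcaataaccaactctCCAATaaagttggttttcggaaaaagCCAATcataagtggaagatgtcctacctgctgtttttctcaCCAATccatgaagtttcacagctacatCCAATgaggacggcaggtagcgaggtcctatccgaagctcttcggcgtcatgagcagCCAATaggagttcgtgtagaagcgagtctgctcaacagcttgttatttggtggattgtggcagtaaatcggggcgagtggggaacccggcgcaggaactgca
RAD51C: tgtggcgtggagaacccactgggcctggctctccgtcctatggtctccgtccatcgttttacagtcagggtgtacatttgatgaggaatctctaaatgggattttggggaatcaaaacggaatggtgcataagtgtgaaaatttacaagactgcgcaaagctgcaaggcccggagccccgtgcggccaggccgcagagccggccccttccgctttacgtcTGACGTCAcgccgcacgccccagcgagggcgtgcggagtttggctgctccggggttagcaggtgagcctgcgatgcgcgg
DDIT3: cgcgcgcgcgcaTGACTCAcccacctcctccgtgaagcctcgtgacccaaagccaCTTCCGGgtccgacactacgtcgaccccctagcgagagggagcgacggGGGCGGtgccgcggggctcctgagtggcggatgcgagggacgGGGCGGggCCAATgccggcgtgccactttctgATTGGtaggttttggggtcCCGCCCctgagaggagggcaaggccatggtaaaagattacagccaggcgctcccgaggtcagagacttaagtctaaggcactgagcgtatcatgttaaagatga

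The peaks were weak relative to the shared peaks at gene ends. Their median −log10 q, the authors' value per peak, was 6.16 (quartiles 4.94 and 8.12), and that of shared gene-end peaks was 10.8 (7.29 and 16.7). Median fold, also the authors' value, was 4.04 against 5.22, and median width was 435 bp against 628 bp. Only 171 of 1380 had a −log10 q of 10 or more (12.4%), against 2239 of 4047 shared peaks (55.3%). CTR-only gene-end peaks, whose values come from another list, had medians of 6.81 in −log10 q, 4.73 in fold and 453 bp in width. Strength is not independent of the rule, so these values carry no test.

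A small group stood above the rest, with 13 peaks at a −log10 q of 20 or more. The peak with the highest value lay 949 bp downstream of the outermost annotated start of GIT2, a GTPase-activating protein for ARF, at fold 11.5 and −log10 q 59.8. It also lay in a window of the neighbour ANKRD13A, whose strand was not in the table. The nearest transcript start in the promoter table, of GIT2, was 2499 bp away from the peak. The SLC35B1 peak (fold 10.3, −log10 q 40.2) had its summit 107 bp downstream of the outermost start, inside the sequence shown above. All distances to a start are from this outermost coordinate of the gene, which can differ from the transcript start of the printed sequence. The peak at GNB2 (fold 6.67, −log10 q 32.2) had its summit at -185 bp, upstream of the start, and GNB2 also had a gene-end peak called in CTR. MAOA, monoamine oxidase A, had the highest fold of the set, 12.3 (−log10 q 27.9), and the nearest CTR peak was 665 kb away. At POC5 (fold 10.6, −log10 q 22.9) the summit was 11 bp from the start, and the nearest CTR peak was 151 kb away. At MYO1E, a class I myosin, it was 55 bp from the start (fold 8.89, −log10 q 20.3). MRPL3, a protein of the mitochondrial ribosome, had a peak of fold 10.1 and −log10 q 18.9. The peak at NOTCH2NLC (fold 7.80) is uncertain, because the gene has near-identical copies between which reads can be misplaced.

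**Figure D1:**
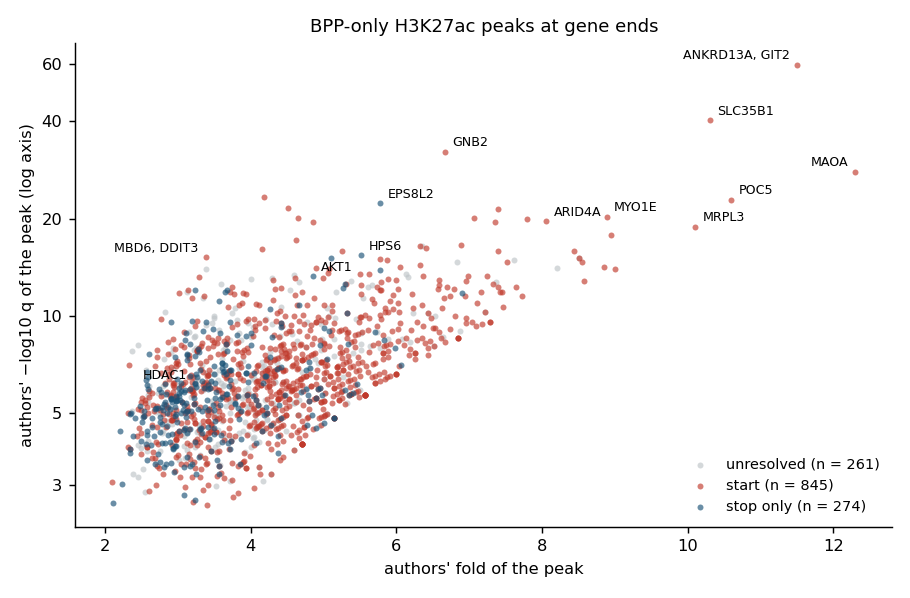
Each point is 1 of the 1380 peaks, with the authors' fold on the horizontal axis and the authors' −log10 q on a logarithmic vertical axis. Red points are peaks at a gene start, dark blue points are peaks at a gene stop only and grey points could not be resolved by strand. Most points lie below a −log10 q of 10, and 13 lie at 20 or above.

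Most of the peaks were far from any CTR peak. The median distance to the nearest one was 24.6 kb, 615 peaks (44.6%) had one 10 to 50 kb away, and 208 (15.1%) had none within 100 kb. Close to the 1 kb threshold lay 67 peaks (4.86%) with a CTR peak 1 to 2 kb away. The nearest were those at CBX6 and MRPL14, each 1.02 kb from a CTR peak, and at WSB2 and S100A14, each 1.04 kb. Just on the other side of the threshold were gene-end BPP peaks at ANKRD9 (0.955 kb), GTF2E2 (0.938 kb), ZMYM5 (0.931 kb) and VCL (0.920 kb). The widest peak spanned 2568 bp (chr12:57519762-57522329) and covered the starts of MBD6 and DDIT3, at fold 3.38 and −log10 q 15.2.

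Strand separated the set into peaks at the beginning and at the end of transcription. At a gene start lay 845 peaks, 274 overlapped windows of gene stops only, and 261 touched a gene whose strand was not in the promoter table and could not be resolved. Among resolved peaks, 24.5% of the BPP-only peaks lay at a stop only (274 of 1119, 22.1 to 27.1). The share was 7.67% among CTR-only peaks (87 of 1135, 6.26 to 9.36) and 4.26% among shared peaks (148 of 3473, 3.64 to 4.99). The difference between BPP-only and CTR-only peaks was 16.8 percentage points (13.9 to 19.8), and that between BPP-only and shared peaks was 20.2 points (17.7 to 22.9). Gene-end peaks of the IgG library lay at a stop only in 33.2% (97 of 292, 28.1 to 38.8).

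The higher share at gene stops was seen in each band of −log10 q. Below a −log10 q of 5 it was 31.7% in BPP-only and 16.3% in CTR-only peaks, and from 5 to 6 it was 36.1% and 11.5%. It was 19.4% and 5.73% from 6 to 8, 30 of 214 and 6 of 263 peaks from 8 to 12, and 11.5% and 1.85% at 12 or more. CTR-only values of −log10 q and fold come from another list, so equal bands need not mean equal strength. The share was lower at higher fold in every class. At a fold under 3 it was 46.7% in BPP-only peaks (79 of 169) and 23.5% in CTR-only peaks (8 of 34), and at a fold of 5 or more it was 8.27% and 2.80%. With only peaks of fold 5 or more kept in both lists before matching, the difference was 2.62 points (0.796 to 4.72). With the 10000 peaks of highest −log10 p from each list it was 9.05 points (6.41 to 11.9). The BPP list was longer than the CTR list, and the part that depth and list length played in the difference was not tested.

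**Figure D2:**
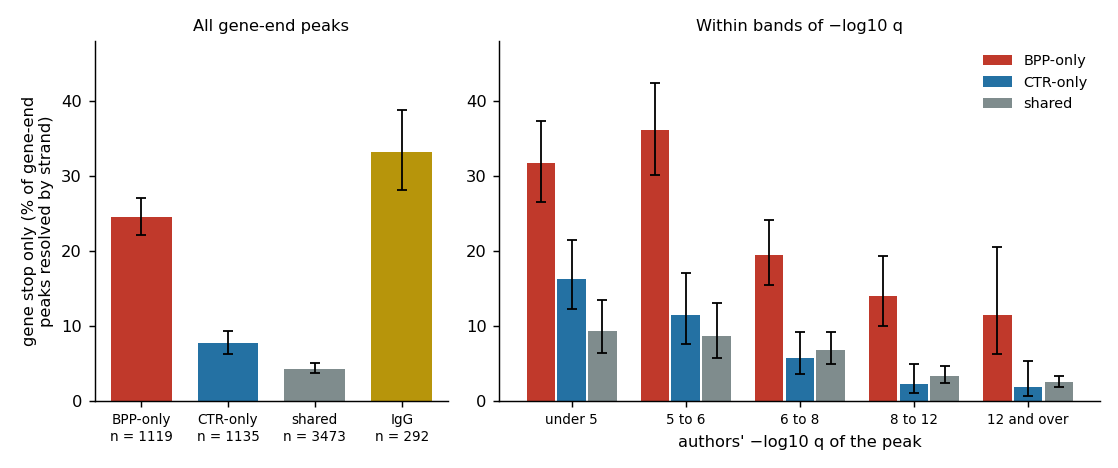
Bars give the percentage of strand-resolved gene-end peaks that overlapped windows of gene stops only, for all peaks on the left and within bands of the authors' −log10 q on the right. Lines are 95% Wilson intervals. BPP-only peaks (24.5%) lie above CTR-only (7.67%) and shared peaks (4.26%), and below IgG peaks (33.2%), and stay above the other H3K27ac classes in all 5 bands. CTR-only values of −log10 q come from another list, so equal bands need not mean equal strength.

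By definition, stop-only peaks overlapped no start window of a protein-coding gene. Low counts of known starts near them are therefore largely set by the rule, and mainly other transcript starts could be counted. A transcript start of any gene in the promoter table lay within 1 kb of 9 of the 274 BPP-only (3.28%), 3 of the 87 CTR-only (3.45%) and 19 of the 148 shared stop-only peaks (12.8%). Without these the stop-only share was 23.9% in BPP-only and 7.42% in CTR-only peaks. An end of a long non-coding RNA gene lay within the window of 17 of the 274 BPP-only, 5 of the 87 CTR-only (5.75%) and 25 of the 148 shared stop-only peaks (16.9%). Summits were spread on both sides of the stop, with 148 of 274 inside the gene (54.0%, 48.1 to 59.8). Peaks inside genes but away from their ends were also frequent among BPP-only peaks, at 57.6% of 8235 against 43.7% of 5378 CTR-only peaks. Counted together with those, stop-only peaks made up 5.46% (4.87 to 6.13) in BPP-only, 3.57% (2.90 to 4.38) in CTR-only and 4.34% (3.71 to 5.08) in shared peaks.

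Stop-only peaks were weaker and nearer to control peaks than those at starts. Their median fold was 3.34 against 4.37 at starts, their median −log10 q was 5.51 against 6.52, and the nearest CTR peak was 13.1 kb away in the median against 31.3 kb. Another BPP-only peak lay within 10 kb of 74 of 274 stop-only peaks and of 167 of the 845 peaks at starts (19.8%). The 312 genes concerned had a median length of 16.3 kb, and all protein-coding genes 24.2 kb. The 96 genes with a stop-only CTR-only peak were of similar length, 15.6 kb. A shared peak at the start was present in 94 of the 312 genes (30.1%, 25.3 to 35.4), in 23 of the 96 genes of the CTR-only counterpart (16.5 to 33.4) and in 24.5% of all genes with known strand.

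The stop-only peaks with the highest −log10 q, named here after their values were seen, lay at genes of varied function. EPS8L2, an actin regulator of the EPS8 family, had the strongest (chr11:727232-728470), at fold 5.78 and −log10 q 22.3, with its summit 531 bp past the stop. EPS8L2 also had another gene-end peak called in CTR. HPS6, a subunit of a complex that forms lysosome-related organelles, had the next stop-only peak (fold 5.52, −log10 q 15.4), with a CTR peak 1.22 kb away. PXMP2, a peroxisomal membrane protein, followed with a −log10 q of 15.1, and DDX55, an RNA helicase, with 13.9. AKT1, the kinase upstream of mTOR complex 1, had a peak (chr14:104768741-104769120) of fold 4.86 and −log10 q 13.3, with its summit 446 bp past the stop and the nearest CTR peak 15.7 kb away. SLC25A1, the mitochondrial citrate carrier, and BRD9, a bromodomain subunit of a SWI/SNF complex, had peaks of fold 3.23 and 3.67. NCL, which encodes nucleolin, had one of fold 5.32 (−log10 q 10.2).

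Of the 3 genes named in the title of the series, HDAC1 had a BPP-only gene-end peak. HDAC1, a class I histone deacetylase, lies on the plus strand of chromosome 1 from 32292083 to 32333626. Its peak (chr1:32332544-32332875, fold 3.23, −log10 q 6.16) had its summit 954 bp before the stop, inside the gene. The stop window of the neighbouring gene MARCKSL1 covered it too. The nearest CTR peak was 1.67 kb away and was itself counted as CTR-only at HDAC1. Both therefore lay at the end and not at the start of HDAC1, and a wider matching distance joins them. BIN2 had no gene-end peak in either H3K27ac list. RPS6, a small-subunit ribosomal protein phosphorylated by S6 kinase, had a shared peak and no BPP-only peak.

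At gene starts, BPP-only peaks were less concentrated on the start itself. The summit was within 250 bp of a gene start in 320 of 845 peaks (37.9%, 34.7 to 41.2). This share was 51.1% in CTR-only peaks, a difference of -13.3 points (-17.7 to -8.78), and 48.9% in shared peaks, a difference of -11.1 points (-14.7 to -7.34). Summits over 500 bp downstream made up 25.8%, against 16.5% in CTR-only and 18.4% in shared peaks. Summits over 500 bp upstream made up 13.8%, against 5.44% and 7.25%. A transcript start in the promoter table lay within 1 kb of 807 of the 845 peaks (95.5%), of 98.0% of CTR-only and of 98.5% of shared peaks at starts. These high shares are largely set by the placement of peaks in start windows. Starts on both strands, as at head-to-head gene pairs, were covered by 87 peaks (10.3%), against 11.5% of CTR-only and 17.9% of shared peaks.

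**Figure D3:**
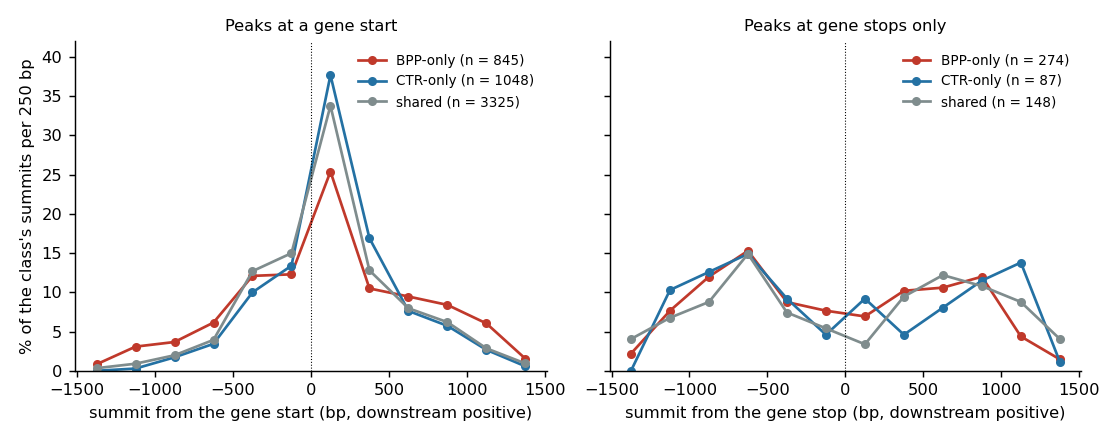
Lines give the percentage of each class's summits per 250 bp, by distance from the nearest gene start on the left and, for stop-only peaks, from the nearest gene stop on the right, with downstream positive. In the 250 bp after the start lie 25.4% of BPP-only, 37.7% of CTR-only and 33.8% of shared summits, while no class has its highest bin directly at the stop.

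Several genes had a BPP-only peak directly over the start. SDHB, a subunit of succinate dehydrogenase, had its summit 13 bp from the start (fold 5.00, −log10 q 8.21), and CYCS, cytochrome c, 3 bp from it (fold 5.73, −log10 q 9.30). XRCC1, a scaffold of single-strand break repair, had its summit 1 bp from the start (fold 4.58, −log10 q 8.22). At the matrix protein gene SPARC the summit was also 1 bp away (fold 4.21, −log10 q 4.99). One peak covered the paired starts of NSDHL, an enzyme of cholesterol synthesis, and CETN2, a centrin, with a fold of 6.79 and no CTR peak within 769 kb. Another covered IFT122, of intraflagellar transport, and the DNA glycosylase gene MBD4 (fold 5.52, −log10 q 11.7). Farther from their starts lay the peaks at SNX9, a BAR-domain sorting nexin, 935 bp downstream (fold 6.35), and at TYMS, thymidylate synthase, 826 bp downstream (fold 5.12).

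Promoters under BPP-only peaks were less often rich in CpG than those under the other classes. Peaks of the set overlapped the 300-base promoter windows of 517 genes. A ratio of observed to expected CpG of 0.6 or more was found in 79.1% of them (75.4 to 82.4). It was found in 93.0% of 861 promoters under CTR-only peaks and in 90.2% of 2947 under shared peaks. Among all promoters, meaning the first listed promoter of each of 15812 protein-coding genes, it was found in 65.8%. The difference from CTR-only was -13.9 points (-17.9 to -10.1) and that from shared was -11.1 points (-15.0 to -7.65). The BPP-only share was the lowest in each band of −log10 q. Under 6 it was 71.7% against 85.7% (CTR-only) and 87.8% (shared), from 6 to 8 81.5% against 94.7% and 87.3%, and at 8 or more 83.4% against 96.7% and 91.0%. From 6 to 8 the BPP-only and shared intervals overlapped (74.4 to 87.0 and 83.5 to 90.3). CTR-only values of −log10 q come from another list, so equal bands need not mean equal strength. Median GC content was 63.0% in BPP-only, 68.0% in CTR-only and 62.7% in shared promoters.

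The motif shares lay close to those of shared promoters. The SP1 letters GGGCGG occurred in 64.6% of promoters under BPP-only peaks, in 74.9% under CTR-only and 67.7% under shared peaks, and in 58.5% of all promoters. The difference from CTR-only, -10.3 points (-15.4 to -5.31), ran alongside the difference in GC content, and its part was not tested. CCAAT occurred in 41.6%, against 35.9% (CTR-only), 41.3% (shared) and 36.3% (all). The ETS letters occurred in 24.8%, 25.8%, 28.1% and 14.2% in the same order. NRF1 letters were in 7.93%, 8.36%, 6.58% and 4.26%, and YY1 letters in 7.16%, 6.04%, 8.59% and 3.91%. AP-1 letters were in 5.80%, 3.37%, 4.24% and 5.76%, TATAAA in 4.45%, 2.32%, 4.75% and 9.64%, E-box letters in 57 of 517, 12.4%, 9.37% and 8.87%, and CRE letters in 4.26%, 3.48%, 4.34% and 2.59%. For none of the 9 motifs did the interval of the difference between BPP-only and shared promoters lie wholly on 1 side of 0. Against CTR-only promoters the intervals did so for SP1, CCAAT, AP-1 and TATA, with differences of 5.70 points for CCAAT, 2.43 for AP-1 and 2.13 for TATA. In the 150 bases before the start the last 3 intervals included 0, while that of YY1 did not (0.389 to 3.75). A match describes the sequence and is not a bound site.

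**Figure D4:**
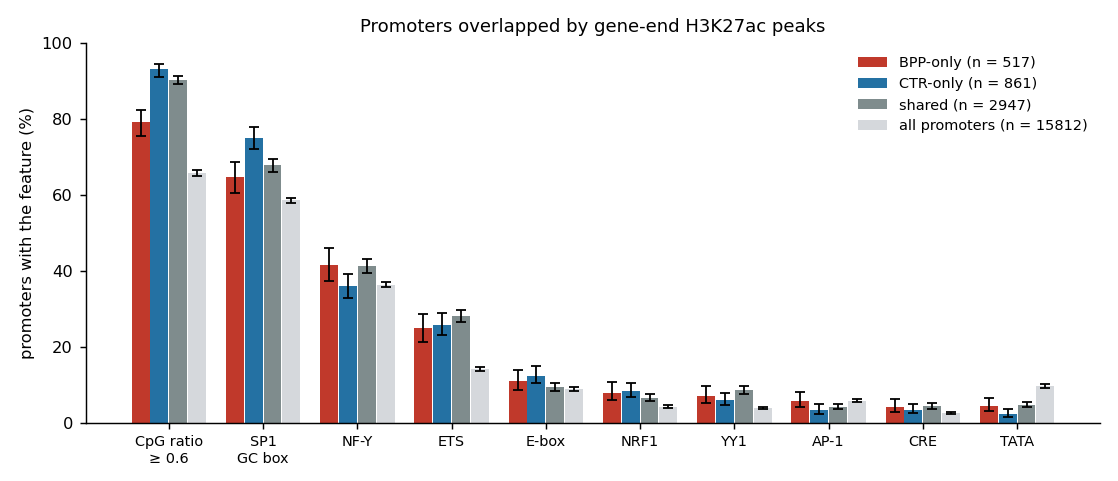
Bars give the percentage of 300-base promoters with a CpG ratio of 0.6 or more, or with a motif on either strand. They are shown under each class of gene-end peak and for all promoters, the first listed promoter of each gene. Lines are 95% Wilson intervals. The CpG bar of BPP-only peaks (79.1%) lies between all promoters (65.8%) and the other peak classes (90.2% and 93.0%).

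IgG peaks were rare near the set. An IgG peak lay within 1 kb of 20 of the 1380 peaks (1.45%, 0.940 to 2.23), of 2.84% of CTR-only and of 2.37% of shared gene-end peaks. The difference from CTR-only was -1.39 points (-2.53 to -0.306). Leaving out all peaks with an IgG peak within 1 kb gave a stop-only difference of 16.9 points, as large as with them.

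The set was spread over all chromosomes, with unequal shares. On chromosome 16, 39.4% of gene-end BPP peaks were BPP-only (89 of 226, 33.2 to 45.9), on X 36.6% (48 of 131), on 17 32.2% (114 of 354) and on 19 31.5% (143 of 454), against 25.4% over all chromosomes. Low shares were found on chromosomes 5 (47 of 247), 4 (19.3%) and 1 (20.4%). The CTR-only shares of gene-end CTR peaks were 33.2% on chromosome 16, 30.6% on X, 24.8% on 17 and 23.5% on 19. On chromosomes 5, 4 and 1 they were 24.3%, 22.9% and 18.8%, against 25.4% over all chromosomes. High shares on 16 and X and a low share on 1 were thus found in both classes. The share at gene stops was higher in BPP-only than in CTR-only peaks on 21 of 22 chromosomes with resolved peaks in both classes. The exception was X, with 2 of 42 against 2 of 38. On chromosome 22 the counts were 15 of 31 against 1 of 28, and on chromosome 19 they were 35 of 120 against 3 of 78. Chromosome 8 had 37 BPP-only and 53 CTR-only gene-end peaks, but none of them could be resolved by strand.

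The 1380 peaks touched 1583 of 19974 protein-coding genes (7.93%), CTR-only peaks 1574 (7.88%) and shared peaks 4807 (24.1%). A gene can have peaks of more than 1 kind, and 254 of the 1583 genes had another gene-end peak called in CTR. Windows of 2 or more genes were covered by 268 peaks (19.4%). The 81 genes with 2 or more BPP-only peaks included VAT1, ATP5MC1 (a subunit of the mitochondrial ATP synthase), KCTD13 and CEP131 (a centriolar satellite protein), with 3 each. At ATP5MC1 summits lay at -546 bp and 505 bp from the start and at -158 bp from the stop, downstream being positive, with folds of 3.26, 3.66 and 3.23. At CEP131 1 summit lay 900 bp from the start and the others at -624 bp and 990 bp from the stop, with folds of 3.49, 2.96 and 2.75.

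In 24 gene lists, counts of genes with BPP-only and CTR-only peaks were set side by side. Of the 1165 matched genes of all lists, 146 had a BPP-only and 143 a CTR-only peak. Both shares were higher than the 7.93% and 7.88% over all protein-coding genes. A list above 7.93% therefore need not exceed the listed genes as a whole. The BPP-only count was the higher one as matched here, with windows of 2 kb, at a −log10 q of 5 or more and with the 10000 strongest peaks of each library in the lists for DNA repair, the endoplasmic reticulum, WNT, NOTCH and TGF-beta, actin and BAR domains, and histones. It was the lower one throughout in the lists for mitochondria, ARF and RAB GTPases, and receptor tyrosine kinases. In every other list that had such peaks, the order was turned or tied, or no peak was left, in at least 1 of these 3 alternatives.

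Chromatin regulators come first, since the title of the series names a deacetylase. BPP-only gene-end peaks were present at 13 of 49 deacetylase and co-repressor genes (26.5%), CTR-only peaks at 8 (16.3%) and shared peaks at 16 (32.7%). Over all protein-coding genes these shares were 7.93%, 7.88% and 24.1%. With only the 10000 strongest peaks per library, however, 9 BPP-only and 11 CTR-only genes were in the list. The median −log10 q of the strongest BPP-only peak per gene was 6.66 in this list and 6.29 over all 1583 genes. At their starts 7 of the 13 had the peak, among them ARID4A (fold 8.06, −log10 q 19.6), the NuRD subunits CHD4 (fold 3.95) and GATAD2B (fold 4.06), the histone-binding RBBP7 (fold 5.00) and HDAC11 (fold 4.23). At their stops it lay in HDAC1, MTA3 (fold 3.82), RCOR1 (fold 3.51), which had a shared peak as well, and BRMS1 (fold 3.01), where the same peak covered the start of the neighbour RIN1. HDAC5, a class IIa deacetylase whose strand was not in the table, had the second strongest peak of the list (fold 6.35, −log10 q 16.5). Of 38 acetyltransferases and acetyl-lysine readers, 5 had a BPP-only, 4 a CTR-only and 21 a shared peak, and with windows of 2 kb the first counts were 5 and 6. BRD9, BRPF1 and NAA60 had theirs at the stop, and BRPF1 and NAA60 had a shared peak as well. Of 44 chromatin remodeller and Polycomb genes, 1 had a BPP-only peak, SMARCA1 (fold 6.85), and 5 a CTR-only peak, but with windows of 2 kb the counts were 7 and 5.

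Among genes of protein synthesis, 14 of 77 cytosolic ribosomal protein genes had a BPP-only peak (18.2%, against 7.93% of all protein-coding genes). A CTR-only peak was present at 12 and a shared peak at 48 (62.3%, against 24.1%). With only the 10000 strongest peaks per library the BPP-only and CTR-only counts were 10 and 12. RPS24 had its summit 98 bp from the start (fold 5.96, −log10 q 11.6), and RPL3 196 bp from it (fold 3.49). RPS15A had a fold of 5.38, with its strand not in the table. In mTOR and S6 kinase signalling, 8 of 52 genes had a BPP-only and 11 a CTR-only peak. They included SESN2, a stress-induced inhibitor of mTOR complex 1, with a peak at the start (fold 4.47, −log10 q 9.97), LAMTOR4 of the lysosomal Ragulator complex at the start (fold 4.21), and AKT1 at the stop. Of 54 genes of translocation, folding and N-glycosylation in the endoplasmic reticulum, 10 had a BPP-only peak (18.5%) and 8 a CTR-only peak. The strongest after SLC35B1 was SSR2, a subunit of the translocon-associated complex, 146 bp from the start (fold 7.39, −log10 q 21.4). SEL1L, of the degradation pathway of the organelle, had a fold of 6.35, and ATF6, a sensor of unfolded proteins, 4.98.

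Genes of splicing and of protein degradation mostly had shared peaks. Of 62 splicing factor genes 45 had a shared peak (72.6%, against 24.1% of all protein-coding genes). A BPP-only peak was present at 8 (12.9%, against 7.93%), in 5 of these at the stop of the gene. SF1, SRSF5, SRSF7 and EFTUD2 had a BPP-only peak at the stop and a shared peak as well, with folds of 2.77, 5.29, 4.47 and 3.72. Of 63 proteasome and ubiquitin genes 44 had a shared, 8 a BPP-only and 8 a CTR-only peak. UBB, a polyubiquitin gene, had a BPP-only peak 186 bp from the start (fold 3.75, −log10 q 9.26). PSMC1 and PSMC3, ATPases of the proteasome, had theirs at the stop, beside a shared peak.

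In DNA repair 12 of 58 genes had a BPP-only peak (20.7%) and 8 a CTR-only peak (13.8%), and 46.6% had a shared peak. Over all protein-coding genes these shares were 7.93%, 7.88% and 24.1%. RAD51C (fold 7.40, −log10 q 15.9), the recombination gene RAD54L (fold 4.72, −log10 q 10.1), PARP2 (fold 4.97, −log10 q 9.75) and the mismatch repair gene PMS2 (fold 4.43, −log10 q 9.30) had theirs at the start. In cell cycle and mitosis, 9 of 56 had a BPP-only and 10 a CTR-only peak. The checkpoint kinase genes BUB1 (71 bp from the start, fold 4.83) and BUB1B (294 bp, fold 4.69) had a peak at the start, that of BUB1 2.41 kb from a CTR peak. PLK1 (fold 3.62), AURKB (−log10 q 5.13) and CDKN1A (fold 4.42) had a peak at the stop, and AURKB had a shared peak as well. Among apoptosis genes and p53 targets the counts were 5 and 7 of 45. Of 62 replication-dependent histone genes 8 had a BPP-only and 3 a CTR-only peak. These genes are short and clustered, and single peaks covered up to 3 of them, as at H2BC7, H3C4 and H2AC7 (fold 4.07, −log10 q 10.9). A single peak also covered H2BC8 and H2AC8, and another H3C2 and H2AC4, so the BPP-only genes outnumber their peaks.

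In other lists CTR-only counts were higher. Of 60 genes of mitochondrial import and the respiratory chain, 4 had a BPP-only peak (6.67%) and 15 a CTR-only peak. The 4 were TIMM22, a channel of the inner membrane (fold 7.06, −log10 q 20.1), the complex I subunits NDUFV2 (fold 6.32, −log10 q 16.4) and NDUFA1 (fold 4.37), and SDHB, each at the start. Of 66 ARF and RAB GTPases and regulators 6 had a BPP-only (9.09%) and 13 a CTR-only peak (19.7%). Of 49 receptor tyrosine kinase and MAPK genes 2 had a BPP-only peak (4.08%) and 9 a CTR-only peak (18.4%). The BPP-only peaks were at NRAS (fold 4.91) and SPRY2 (fold 3.18, 2.32 kb from a CTR peak).

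BAR-domain genes are described because BIN2 is a BAR-domain protein. Whether peaks at them relate to the peptide was not tested, and they were not counted apart from actin genes. In the list of 68 actin and BAR-domain genes 9 had a BPP-only peak (13.2%, against 7.93% of all protein-coding genes), 6 a CTR-only and 25 a shared peak. Besides MYO1E and SNX9 they were PICK1 (41 bp from the start, fold 5.08, −log10 q 8.06), ARHGAP17 (fold 4.77), TRIP10 (fold 3.68), PACSIN3 (fold 3.22) and SNX33 (at the stop, fold 2.86), which encode proteins with a domain of the BAR superfamily, and PFN1 and RAC1. PACSIN3 had a shared peak as well. Of 62 centriole and cilium genes 7 had a BPP-only and 4 a CTR-only peak, and with the 10000 strongest peaks of each list 5 and 7. In the WNT, NOTCH and TGF-beta list the counts were 6 and 3 of 50, with the receptor genes BMPR2 (fold 4.76) and ACVR2A (fold 5.26) at the start.

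Lineage marker lists had shares near or above the 7.93% of all protein-coding genes, or were too small to tell a share of 0 from it. Among 29 markers of epithelium and ovarian carcinoma, BPP-only peaks were present at 2, KRT8 (at the stop, fold 4.79) and MSLN (fold 3.89) (6.90%), CTR-only peaks at 0 and shared peaks at 4. KRT8 had a shared peak as well. Of 38 mesenchymal genes 3 had a BPP-only peak (7.89%), and of 43 pluripotency and oncogenic transcription factors 5 (11.6%). Among these were ID1, ID2 and ID3, which encode inhibitors of helix-loop-helix factors, at the stop (folds of 2.74, 3.73 and 2.48). Their nearest CTR peaks were 2.22, 6.37 and 1.82 kb away, and ID1 also had a CTR-only gene-end peak. Of 20 immune markers 1 had a BPP-only peak, GNLY (fold 3.74, −log10 q 3.12), of 14 endothelial and fibroblast markers 0, and of 12 neural markers 0. H3K27ac at a gene end is not expression, so these counts are no check of the label of the cell line.

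**Figure D5:**
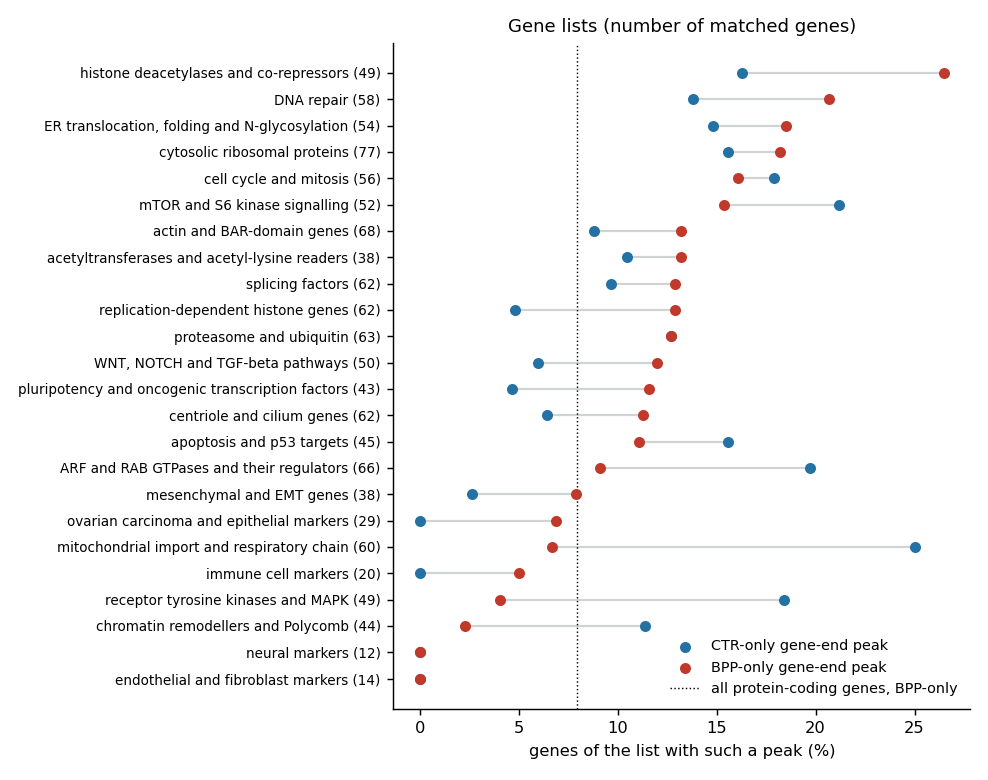
Each row is a gene list, and points give the percentage of its genes with a BPP-only (red) or a CTR-only (blue) gene-end peak. The dotted line is the share of all protein-coding genes with a BPP-only peak (7.93%). Deacetylase and co-repressor genes have the highest BPP-only share (26.5%) as matched here, and mitochondrial genes the highest CTR-only share (15 of 60 genes).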

How the data were processed

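H3K27ac and IgG CUT&Tag peak lists of A2780 cells were analysed, 1 library for each of BPP, CTR and IgG, grouped by sample title. The submitters' processing notes name fastp, deepTools 3.3.0, Bowtie2 2.4.1 and the build GRCh38.p13 (hg38). How peaks were called, against what control and at what depth is not given in the sources used here. For each library the authors deposited its own list, with a score, a fold (a ratio whose denominator is not stated), a −log10 p-value and a −log10 q-value per peak. These were used as deposited to describe, rank and filter peaks within a list. Only chromosomes 1 to 22 and X entered (17841 BPP, 14836 CTR and 7701 IgG peaks).

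Genes came from RefSeq on GRCh38.p14, whose chromosome coordinates are those of GRCh38.p13. Strand came from the promoter table for 15812 of 19974 protein-coding genes (79.2%). A peak was placed at a start where it overlapped any start window, and at a stop only where all its windows were stops of genes with known strand. Where several promoters of a gene lay under peaks of a class, the one nearest a summit was used. For all promoters the first listed promoter of each gene was used, so that set was chosen by another rule. Overlap was counted from 1 bp and checked against bedtools 2.31.1 on simulated peaks. Analysis used pandas 2.3.3, numpy 2.4.6 and scipy 1.17.1 in Python 3.11.15, and plots matplotlib 3.10.9.

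Members, gene lists and rules were chosen with earlier results of these data known, and 1165 of 1167 listed genes matched (CENPJ and NDUFA4 did not). Named genes were BIN2, HDAC1 and RPS6, the 20 peaks of highest −log10 q, up to 3 genes per list by −log10 q, the 5 genes with most peaks, the 3 widest peaks and 4 on either side of the 1 kb threshold. Other list genes were named after their values were seen. Provisional gene names were left out, and not all genes that the rule takes are described. The split by fold, the bands of −log10 q and the difference in stop-only shares were added after the data were seen.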

Additional observations from a re-analysis of the deposited data

How the results depend on the processing

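Alternatives changed 1 choice at a time. The number of BPP-only gene-end peaks was 719 with a fold of 5 or more in both lists and 900 with the top 10000 peaks of each list, against 1380, and the former left 846 genes against 1583. The share of gene-end BPP peaks without a CTR peak (25.4%) was 30.0% when only overlap of 1 bp counted, 22.4% with a distance of 5 kb, 21.8% and 29.9% with windows of 500 bp and 2 kb, 26.8% at −log10 q of 5 or more in both lists, 28.1% at fold 5, 23.2% with the top 10000 and 21.2% with the −log10 q filter on BPP alone. The share of BPP-only peaks at gene ends (16.8%) was 18.3% for overlap of 1 bp, 12% and 23.2% with the narrower and wider windows, 20.6% at −log10 q 5, 27.4% at fold 5, 23.8% with the top 10000 and 19.5% with the filter on BPP alone. The share at a gene start (75.5%) was 70.9% by the end nearest the summit, 79.0% and 71.7% with the windows, 80.3% at −log10 q 5, 95.2% at fold 5, 86.4% with the top 10000 and 78.0% with the filter on BPP alone. The stop-only difference between BPP-only and CTR-only peaks (16.8 points) was 2.62 at fold 5 and 9.05 with the top 10000, and 14.3 to 16.9 in the other 7 settings. Stricter filters tested fewer peaks, and the cause of the other shifts was not tested. The IgG share, the CpG share and the count of listed genes stayed within the interval of the share or 1.5 times the count. With peaks near IgG left out there is no IgG share. No paired analysis was possible because each group had 1 library. Unknown depth limits every statement that a peak is absent from a list.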
